A study of Homo sapiens with 14 samples.

Results

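The 10 genes described here encode glutathione S-transferases, taken by gene name from a deposited table of 56479 genes. They were GSTA1, GSTA2 and GSTA4 of the alpha class, GSTM2, GSTM3 and GSTM4 of the mu class, GSTP1 of the pi class, GSTK1 of the kappa class, GSTO1 of the omega class, and the membrane-bound MGST1. Each name matched 1 entry, and 9 of the 10 passed the filter on low counts that left 19232 genes for testing. GSTP1 did not pass.

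RNA had been sequenced from HepG2, a hepatoblastoma line, and Hep3B, a hepatocellular carcinoma line, while cells were under osmotic or mechanical compression. HepG2 cells on culture dishes spent 5 days in medium with 4% polyethylene glycol 300 (PEG), which draws water out of cells, or in isotonic medium. HepG2 cells on transwell membranes carried a weight or were left uncompressed. Hep3B cells on transwells carried a weight, were kept in 3% PEG, or were left uncompressed. Each of the 7 groups held 2 libraries, and the labels give both lines as wild type. For the transwell groups neither the load nor the duration is stated in the labels. The groups are cell lines without stroma, so they model tumour cells alone, and each level is an average over a culture: fewer expressing cells and less RNA per cell cannot be told apart.

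Glutathione S-transferases join the tripeptide glutathione to electrophilic compounds such as drugs, carcinogens and lipid peroxidation products, so that these can be exported from the cell. Alpha-class enzymes are a large part of the soluble protein of human hepatocytes, whereas GSTP1 is the main form of many other epithelia and is little expressed in normal hepatocytes. Many genes of the family are known targets of the oxidant-responsive factor NRF2, which binds antioxidant response elements.

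The starts of GSTA1, GSTA2 and GSTP1 are shown because the first pair, near-identical there, fell most under weight in HepG2 and went apart under 4% PEG, and the last was hardly detected. Each window runs from 250 bases before to 50 bases after the annotated start, 5′ to 3′ on the gene's strand (RefSeq, GRCh38.p14). Capitals in the GSTA1 window (chr6:52803767-52804066, minus strand) and the GSTA2 window (chr6:52763426-52763725, minus strand) mark the bases at which they differ. In the GSTP1 window (chr11:67583562-67583861, plus strand) capitals mark an antioxidant response element core.
GSTA1: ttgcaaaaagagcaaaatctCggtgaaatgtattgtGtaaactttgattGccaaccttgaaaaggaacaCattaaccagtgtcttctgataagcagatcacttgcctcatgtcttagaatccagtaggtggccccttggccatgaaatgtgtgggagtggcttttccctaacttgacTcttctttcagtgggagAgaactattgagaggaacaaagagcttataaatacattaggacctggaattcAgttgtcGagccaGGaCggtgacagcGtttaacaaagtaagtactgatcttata
GSTA2: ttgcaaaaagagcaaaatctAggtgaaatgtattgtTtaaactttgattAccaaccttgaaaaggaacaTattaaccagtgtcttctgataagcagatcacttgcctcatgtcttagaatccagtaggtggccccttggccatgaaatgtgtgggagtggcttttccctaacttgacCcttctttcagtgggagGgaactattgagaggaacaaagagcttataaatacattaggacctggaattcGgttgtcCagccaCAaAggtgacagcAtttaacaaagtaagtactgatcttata
GSTP1: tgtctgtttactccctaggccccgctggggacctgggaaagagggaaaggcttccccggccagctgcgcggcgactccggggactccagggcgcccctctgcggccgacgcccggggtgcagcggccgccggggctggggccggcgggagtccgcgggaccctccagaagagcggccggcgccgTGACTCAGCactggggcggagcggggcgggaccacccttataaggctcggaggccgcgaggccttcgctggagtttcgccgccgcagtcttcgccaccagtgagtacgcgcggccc

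The GSTA1 and GSTA2 windows were identical at 288 of 300 bases (96%), with 7 differences before the start and 5 after it. Both hold the letters TATAAA 30 bases before the start, found in 11.5% of 35116 windows of this length on either strand. Both also hold GTTAAT, the half-site of the hepatocyte factor HNF1, 180 bases before the start on the other strand. That half-site was found in 6.88% of windows and in those of 3 members, the other being MGST1. The antioxidant response element core TGACNNNGC, found in 13.35% of windows, was present for 4 members, GSTA4, GSTP1, GSTO1 and MGST1. For GSTP1 it lay 66 bases before the start and overlapped the letters TGANTCA, the AP-1 motif, which 7.71% of windows hold. The GSTP1 window had 36 CpG sites, more than 87.3% of windows, against a median of 14. RefSeq windows were found for 10 of 10 members, 12 windows in all, and a match describes letters, not binding.

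In the GRCh38 annotation (GENCODE 29), GSTA1 (ENSG00000243955) lies at chr6:52791664-52803910, GSTA2 (ENSG00000244067) at chr6:52750089-52763569 and GSTA4 (ENSG00000170899) at chr6:52977948-52995378, all on the minus strand. The mu-class genes lie at chr1:109668022-109709551 for GSTM2 (ENSG00000213366, plus strand), chr1:109733932-109741038 for GSTM3 (ENSG00000134202, minus strand) and chr1:109656081-109674836 for GSTM4 (ENSG00000168765, plus strand). GSTP1 (ENSG00000084207) lies at chr11:67583595-67586656, GSTK1 (ENSG00000197448) at chr7:143244093-143270854, GSTO1 (ENSG00000148834) at chr10:104235356-104267459 and MGST1 (ENSG00000008394) at chr12:16347142-16609259, all on the plus strand. Near-identical copies can share reads in this family. Of the 100-base windows of its transcripts, GSTA1 shared 11.96% with GSTA2, and GSTA2 shared 9.06% with GSTA1. GSTM2 shared 32.2% of its windows with GSTM4, GSTM1 and an antisense gene, and it overlaps GSTM4 on the same strand, so the GSTM2 counts are uncertain. GSTM4 shared 7.51% and GSTM3 3.51%. GSTM1 itself had at most 2 counts in any group. Genes on the opposite strand overlap GSTM2, GSTM3, GSTK1 and MGST1, and no source used here says whether counting used strand.

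The libraries held between 21.2 M and 35.4 M counts, of which the 10 genes took 0.0246% to 0.0484%. Levels are CPM, the counts of a gene divided by the scaled library size in M, and 3 counts, the limit that a count of 0 allows, were worth 0.0952 to 0.141 CPM. The labels name biological replicates on dishes and say nothing more of separate cultures, so p-values measure the spread between labelled libraries. That spread was pooled over all 14 libraries and was unequal. The biological coefficient of variation, edgeR's estimate of the spread beyond counting error, was 0.290 in the 4% PEG pair and 0.320 in the isotonic pair, against 0.0459 to 0.0705 in the transwell pairs. In both dish groups the difference between replicates went with transcript GC content, with a Spearman rho of −0.666 in 4% PEG and −0.655 in isotonic medium over 19232 genes, which are not independent. The rho was −0.244 in Hep3B under 3% PEG and −0.09 to 0.03 in the other transwell groups. Replicate 1 had the higher share of mitochondrial counts in every group. RB1, which Hep3B is known to lack, had 2.68 to 4.48 CPM in the Hep3B groups and 103.9 to 129.96 CPM in the HepG2 groups. All 8 hepatocyte markers had counts in every group. Per library, 4 fibroblast markers summed to 2.19 to 27.1 CPM, 3 endothelial markers to 0.494 to 14.9 CPM, 3 leukocyte markers to 0.518 to 11.2 CPM and 3 bile duct markers to 105 to 841 CPM. Among those defining other cells, PTPRC was at 0 in all HepG2 groups, CD3E in all groups but 4% PEG, and CDH5 in all Hep3B groups.

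GSTO1, an enzyme with thiol transferase and dehydroascorbate reductase activity, and MGST1, a glutathione transferase and peroxidase of the endoplasmic reticulum and outer mitochondrial membrane, were the highest members in all 7 groups. Levels between genes are compared per kilobase of transcript. GSTO1 averaged 214 CPM per kilobase in HepG2 under 4% PEG, where it made up 46.6% of the summed level of the 10 genes. MGST1 averaged 212 CPM per kilobase in Hep3B under 3% PEG, 55.1% of the sum there. GSTA1 took 0.33% of the sum in uncompressed Hep3B, against 6.18% in uncompressed HepG2 on transwells. The sum itself was highest in HepG2 under 4% PEG, at 460.3 CPM per kilobase, and lowest in HepG2 under weight, at 304.

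**Figure D1:**
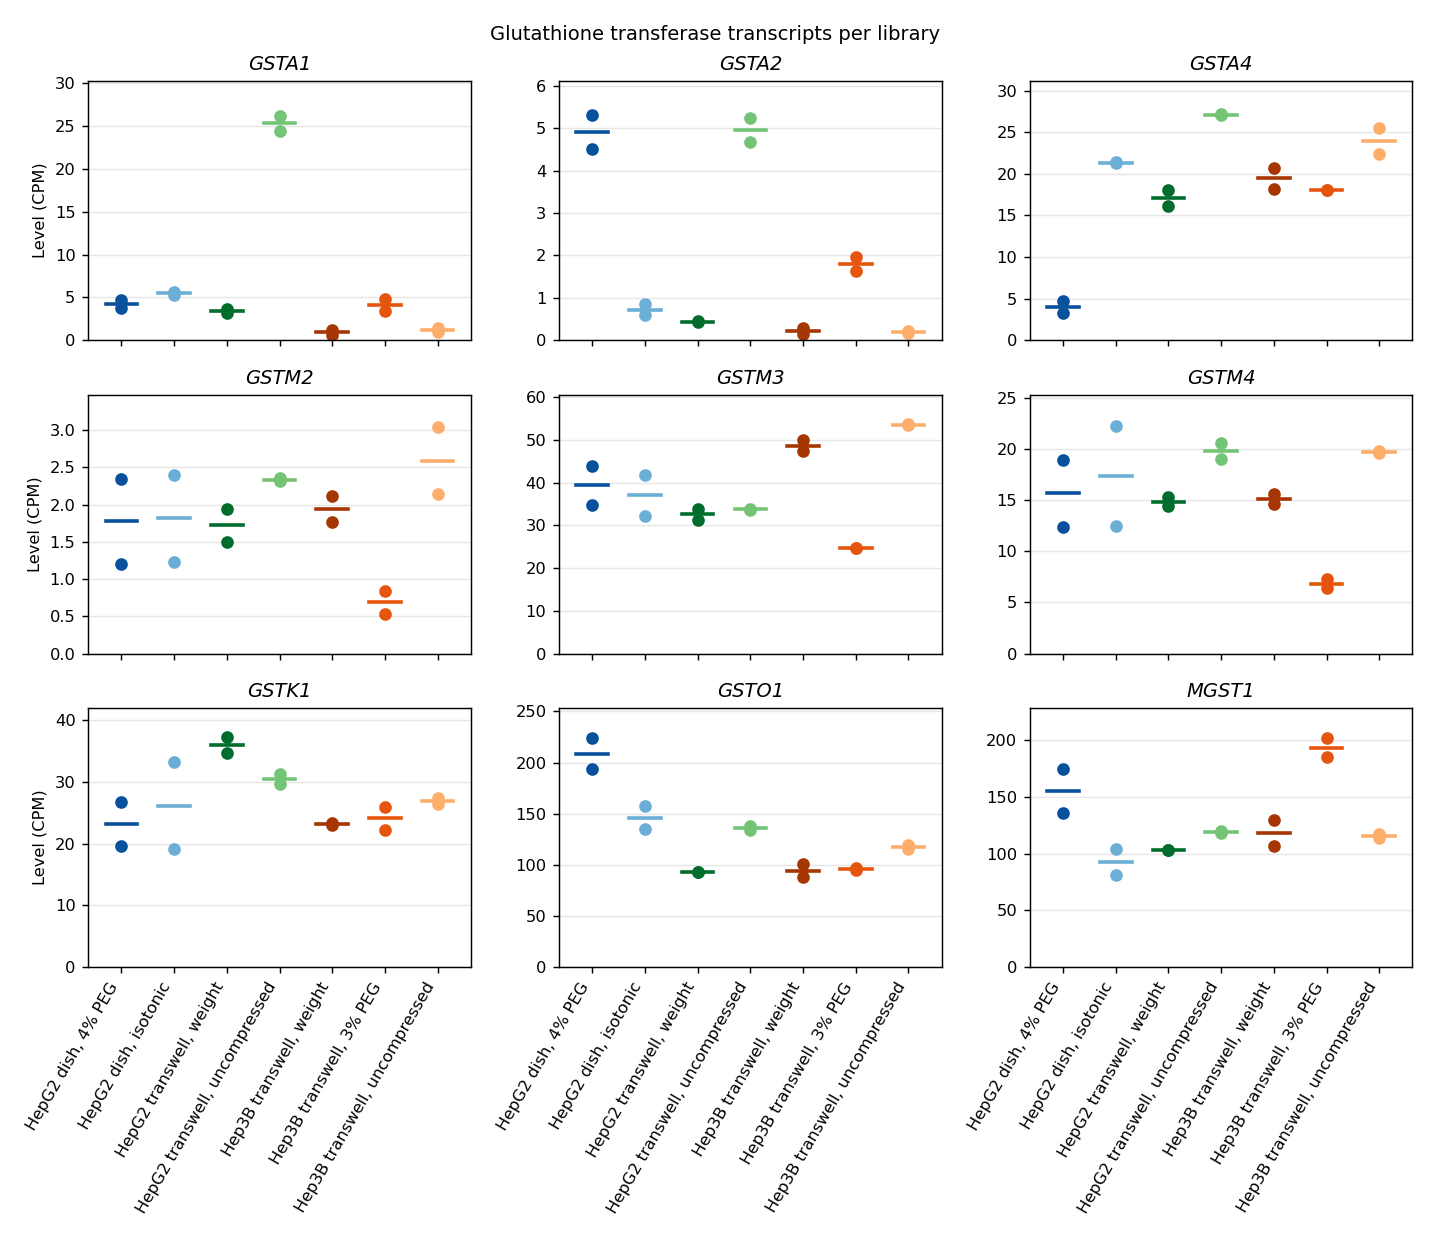
Level of each tested member in CPM (y axis from 0) in the 7 groups along the x axis; points are the 2 libraries of a group and the bar is their mean. GSTA1 stands at 24.4 and 26.3 CPM in uncompressed HepG2 on transwells and at most at 5.63 CPM elsewhere, GSTA4 is lowest in 4% PEG, and the 3 mu-class genes are lowest in 3% PEG.

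Under 4% PEG for 5 days, GSTA2 rose and GSTA4 fell in HepG2, while the neighbouring GSTA1 did not pass the test. GSTO1 and MGST1 rose by less than 2-fold. In all, 3 members rose and 1 fell of 9 tested, in a comparison that called 46.9% of all genes (23.9% higher, 23% lower), so a share of 4 in 9 is near that background. The members' median log2 fold change was −0.01, beside 0.01 over all genes tested.

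GSTA2, an alpha-class transferase abundant in adult liver, had 4.51 and 5.30 CPM under 4% PEG, against 0.601 and 0.844 CPM in isotonic medium. Both treated libraries were above both controls, and the rise was 6.84-fold (log2 2.77 ± 0.28 SE, n = 2 each, edgeR adjusted p = 7.21e-06). GSTA4, which acts on 4-hydroxynonenal, an aldehyde from oxidised lipids, had 4.70 and 3.30 CPM under 4% PEG, against 21.3 and 21.4 CPM in isotonic medium. It was low in both treated libraries, with no overlap (log2 −2.41 ± 0.18, adjusted p = 9.05e-07). The GSTA1 level, for the enzyme closest in sequence to GSTA2, was 4.70 and 3.81 CPM under 4% PEG, against 5.30 and 5.63 CPM in isotonic medium. Those groups did not overlap either, but the difference of −0.36 ± 0.28 did not pass (adjusted p = 0.321, 95% interval −1.02 to 0.31).

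GSTO1 had 193 and 224 CPM under 4% PEG, against 135 and 157 CPM in isotonic medium (log2 0.51 ± 0.12, adjusted p = 0.00330). MGST1 had 175 and 136 CPM under 4% PEG, against 80.8 and 104 CPM in isotonic medium (log2 0.75 ± 0.15, adjusted p = 0.00185). The groups did not overlap for either gene. With the 4 dish libraries fitted alone both calls were lost, and the adjusted p was 0.167 for GSTO1 and 0.0918 for MGST1, whereas GSTA2 (0.00794) and GSTA4 (0.00660) still passed. That fit called 22% of its 17092 genes.

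The other 4 tested members differed by −0.17 to 0.09 on the log2 scale, with adjusted p from 0.566 to 0.994. GSTM3, a mu-class enzyme known from brain and testis, had 34.8 and 44.0 CPM under 4% PEG, against 32.2 and 41.9 CPM in isotonic medium. GSTM4 had 12.4 and 19.0 CPM under 4% PEG, against 12.4 and 22.2 CPM in isotonic medium. In both genes replicate 2 was the higher library of each group, and the groups overlapped. GSTM2 (1.21 and 2.35 CPM under 4% PEG, against 1.24 and 2.39 CPM in isotonic medium) and GSTK1, the kappa-class enzyme of mitochondria and peroxisomes (19.6 and 26.7 CPM under 4% PEG, against 19.0 and 33.2 CPM in isotonic medium), were split between replicates in the same way. Scaling by library totals alone moved the median of all genes to 0.37, and then GSTM3 was called at 0.44 (adjusted p = 0.0335). Without isotonic replicate 1, GSTK1 was called lower at −0.53 (adjusted p = 0.0271).

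Hepatocyte markers moved in the same comparison: 7 of 8 fell, and their summed level was 31164 to 34459 CPM under 4% PEG, against 134045 to 142108 CPM in isotonic medium. Bile duct markers (KRT7, KRT19 and SOX9; 1 rose and 1 fell) summed to 726 to 841 CPM under 4% PEG, against 410.2 to 422 CPM in isotonic medium, with KRT7 at 0 under 4% PEG. Leukocyte markers summed to 8.00 to 11.2 CPM under 4% PEG, against 1.80 to 1.88 CPM in isotonic medium, with PTPRC at 0 in both groups. Fibroblast markers summed to 2.19 to 3.54 CPM under 4% PEG, against 12.4 to 18.6 CPM in isotonic medium, where DCN was at 0, and 1 of the 2 tested fell. Of 3 endothelial markers 1 rose and 1 fell, and they summed to 12.9 to 14.7 CPM under 4% PEG, against 11.9 to 14.9 CPM in isotonic medium. Mitochondrial transcripts took 7.34% and 5.05% of the counts under 4% PEG, against 1.87% and 0.999% in isotonic medium. The part of all these in the results above was not tested.

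Under weight, HepG2 cells on transwells had lower GSTA1 and GSTA2 than uncompressed cells, by 7.41-fold and 11.2-fold. GSTA4 and GSTO1 were lower by less than 2-fold, and no member rose. The 4 members that fell, of 9 tested, compare with 9.59% of all genes called in either direction, 5.4% higher and 4.19% lower. The members' median was −0.44, beside 0.00 over all genes tested.

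GSTA1 had 3.65 and 3.17 CPM under weight, against 24.4 and 26.3 CPM uncompressed (log2 −2.89 ± 0.28, adjusted p = 0.000149). For GSTA2 the levels were 0.456 and 0.420 CPM under weight, against 4.68 and 5.25 CPM uncompressed (log2 −3.49 ± 0.31, adjusted p = 4.78e-05). The compressed libraries of both genes were far below both controls, and the calls held with any 1 of the 14 libraries left out. The compressed level of GSTA2 rests on 11 and 9 counts.

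GSTA4 had 16.1 and 18.0 CPM under weight, against 27.1 and 27.1 CPM uncompressed (log2 −0.67 ± 0.17, adjusted p = 0.0291). GSTO1 had 92.5 and 93.1 CPM under weight, against 134 and 138 CPM uncompressed (log2 −0.55 ± 0.12, adjusted p = 0.0118). These groups did not overlap, but leaving out any of the 4 compared libraries ended both calls, with adjusted p from 0.107 to 0.234 for GSTA4 and from 0.0832 to 0.105 for GSTO1. Leaving out either library of 3% PEG or uncompressed Hep3B also ended the GSTA4 call (0.0527 to 0.0579). With the 4 HepG2 transwell libraries fitted alone, whose own spread was small, 7 members were called, GSTA4 (2.26e-05) and GSTO1 (1.28e-06) among them. That fit called 44.5% of its 15653 genes.

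MGST1 had 102.8 and 103.5 CPM under weight, against 118.5 and 119.8 CPM uncompressed, and GSTM4 had 15.3 and 14.4 CPM under weight, against 19.0 and 20.6 CPM uncompressed. GSTK1 had 37.2 and 34.6 CPM under weight, against 31.3 and 29.6 CPM uncompressed, the only member with both compressed libraries above both controls. None of these differences passed in the fit of all libraries (MGST1 −0.21 ± 0.15, GSTM4 −0.41 ± 0.26, GSTK1 0.24 ± 0.23). All of them passed in the fit of the 4 libraries alone, with an adjusted p of 0.0135 for MGST1, 0.00385 for GSTM4 and 0.00536 for GSTK1. That fit called 44.5% of its genes. GSTM3 had 33.9 and 31.4 CPM under weight, against 33.8 and 33.7 CPM uncompressed, and GSTM2 had 1.95 and 1.49 CPM under weight, against 2.32 and 2.36 CPM uncompressed. Neither passed (adjusted p = 0.910 and 0.575). Bile duct markers moved here too: 2 of 3 rose, and they summed to 606 to 610.3 CPM under weight, against 384 to 392 CPM uncompressed. Hepatocyte markers summed to 90511 to 100604 CPM under weight, against 103425 to 111184 CPM uncompressed, with 1 of 8 called higher and 1 lower. Fibroblast markers summed to 10.7 to 13.6 CPM under weight, against 25.8 to 27.1 CPM uncompressed, with DCN at 0 in both groups and 1 of the 2 tested lower. Endothelial markers, none of them called, summed to 11.8 CPM in both libraries under weight, against 7.00 to 7.07 CPM uncompressed. The part of these markers in the result was not tested.

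**Figure D2:**
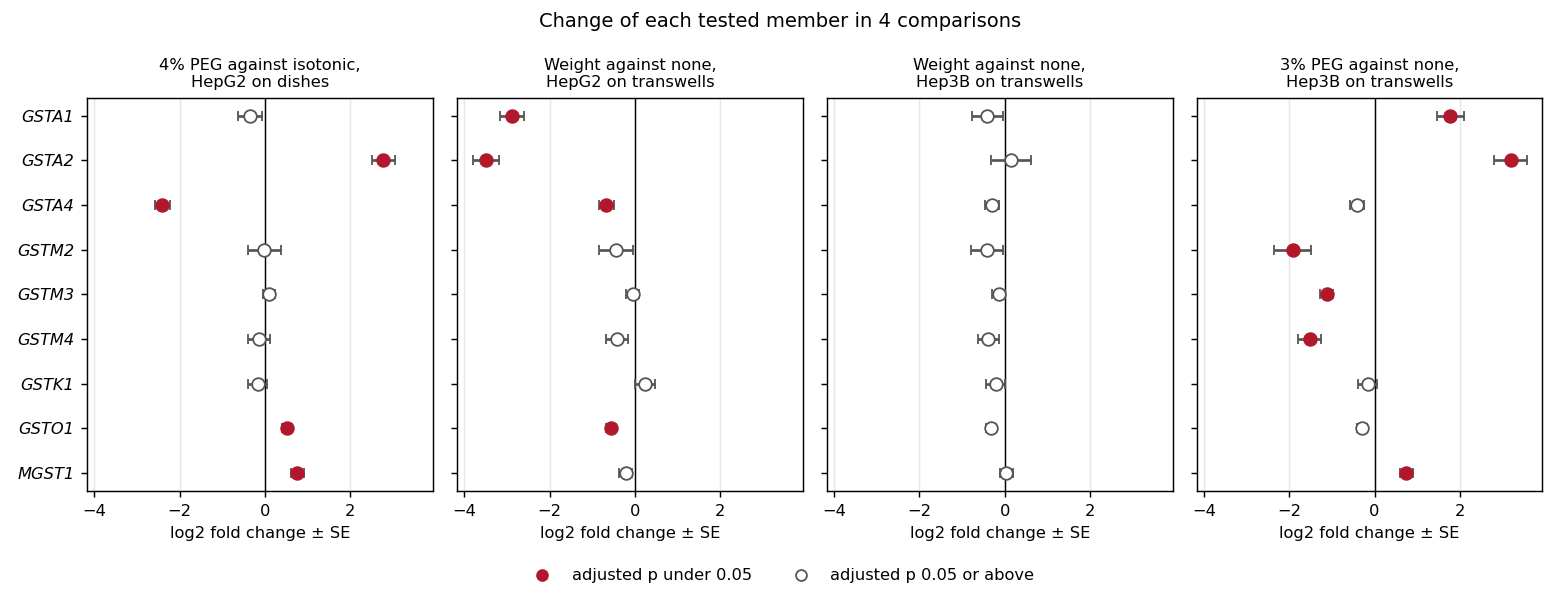
Log2 fold change (x axis, error bars 1 SE) of the 9 tested members in the 4 comparisons of a compressed group with its control; filled points have an adjusted p under 0.05 in the fit of all 14 libraries. GSTA2 is at 2.77 in 4% PEG, −3.49 in HepG2 under weight and 3.19 in 3% PEG, and no point is filled for Hep3B under weight.

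In Hep3B under weight no member passed the test with edgeR's quasi-likelihood model or with DESeq2, in a comparison that called 1.06% of all genes (0.879% higher, 0.177% lower). The member with the smallest p was GSTO1 (edgeR, unadjusted p = 0.0189). It had 100.6 and 88.2 CPM under weight, against 119.7 and 115 CPM uncompressed, with no overlap (log2 −0.32 ± 0.12, adjusted p = 0.385). The members' median was −0.30, beside −0.01 over all genes tested.

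GSTA1 and GSTA2 were low in these cells. GSTA1 had 1.19 and 0.597 CPM under weight, against 0.908 and 1.47 CPM uncompressed, which overlapped, and GSTA2 rested on 4 and 7 counts under weight, against 6 and 5 counts uncompressed. The 95% interval of the difference ran from −1.25 to 0.44 for GSTA1 and from −0.95 to 1.27 for GSTA2. The first includes a 2-fold fall and the second a 2-fold rise.

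For GSTA4 (20.7 and 18.2 CPM under weight, against 25.6 and 22.4 CPM uncompressed) and GSTM4 (15.6 and 14.7 CPM under weight, against 19.8 and 19.6 CPM uncompressed) the compressed libraries were the lower pair. Their differences were −0.30 ± 0.17 and −0.38 ± 0.26, with adjusted p of 0.752 and 0.842. GSTM3 had 49.9 and 47.5 CPM under weight, against 53.5 and 53.7 CPM uncompressed, and GSTK1 had 23.1 and 23.3 CPM under weight, against 26.4 and 27.4 CPM uncompressed. GSTM2 (1.77 and 2.11 CPM under weight, against 3.04 and 2.14 CPM uncompressed) and MGST1 (129.6 and 106 CPM under weight, against 113.5 and 117 CPM uncompressed) completed the list. With the 4 libraries fitted alone, GSTM4 (−0.35, adjusted p = 0.0111) and GSTO1 (−0.28, adjusted p = 0.00616) were called lower, and GSTA2 was too low to be tested. That fit called 15.2% of its 16303 genes. In this comparison 1 of 8 hepatocyte and 1 of 3 endothelial markers rose, and the bile duct markers, none called, summed to 241 to 246 CPM under weight, against 338.9 to 339 CPM uncompressed.

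In Hep3B under 3% PEG, GSTA1, GSTA2 and MGST1 rose and all 3 mu-class members fell. The 6 members called, of 9 tested, compare with 22.5% of all genes (11% higher, 11.5% lower). The members' median was −0.29, beside −0.01 over all genes tested. This comparison shares its control libraries with that of the weight.

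GSTA2 had 1.97 and 1.62 CPM under 3% PEG, against 0.209 and 0.175 CPM uncompressed, a rise of 9.12-fold (log2 3.19 ± 0.38, adjusted p = 6.30e-05). GSTA1 had 4.79 and 3.39 CPM under 3% PEG, against 0.908 and 1.47 CPM uncompressed (log2 1.77 ± 0.31, adjusted p = 0.00199). MGST1 had 201.5 and 185 CPM under 3% PEG, against 113.5 and 117 CPM uncompressed (log2 0.74 ± 0.15, adjusted p = 0.00491). The treated libraries were the higher ones for all 3 genes, without overlap. The MGST1 call ended without 3% PEG replicate 1 (adjusted p = 0.0524) or uncompressed replicate 1 (0.0542).

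Among the mu-class genes, GSTM3 had 24.7 and 24.7 CPM under 3% PEG, against 53.5 and 53.7 CPM uncompressed (log2 −1.12 ± 0.15, adjusted p = 0.000348). GSTM4, a transferase whose gene lies beside GSTM2, had 7.29 and 6.42 CPM under 3% PEG, against 19.8 and 19.6 CPM uncompressed (log2 −1.52 ± 0.26, adjusted p = 0.00175). The GSTM2 level was 0.845 and 0.529 CPM under 3% PEG, against 3.04 and 2.14 CPM uncompressed (log2 −1.92 ± 0.43, adjusted p = 0.00711). All 6 treated values lay below their controls. GSTM2 rested on 21 and 15 treated counts, and its call ended without 3% PEG replicate 2 (adjusted p = 0.0902) or uncompressed replicate 1 (0.0630).

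GSTA4 had 18.1 and 18.0 CPM under 3% PEG, against 25.6 and 22.4 CPM uncompressed (log2 −0.41 ± 0.17, adjusted p = 0.105). GSTO1 had 95.4 and 97.1 CPM under 3% PEG, against 119.7 and 115 CPM uncompressed (log2 −0.29 ± 0.12, adjusted p = 0.0989). Both were lower in both treated libraries and passed when the 4 libraries were fitted alone (9.83e-05 for GSTA4 and 3.37e-05 for GSTO1). That fit called 60% of its 16445 genes. GSTK1 had 25.9 and 22.3 CPM under 3% PEG, against 26.4 and 27.4 CPM uncompressed (adjusted p = 0.680). Beside these results, 5 of 8 hepatocyte markers fell and 1 rose, with a summed level of 28853 to 28997 CPM under 3% PEG, against 43459 to 46168 CPM uncompressed. Of the bile duct markers 2 of 3 fell, to 105 to 106 CPM under 3% PEG, against 338.9 to 339 CPM uncompressed. Fibroblast markers summed to 24.96 to 27.1 CPM under 3% PEG, against 11.7 to 14.4 CPM uncompressed, where COL3A1 was at 0, and 1 of the 2 tested rose. Leukocyte markers summed to 1.62 to 1.77 CPM under 3% PEG, against 0.593 to 0.701 CPM uncompressed, with CD3E at 0 in both groups and the 1 tested higher. The part of these markers in the result was not tested.

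Weight and 3% PEG were also compared directly in Hep3B, which calls 23.1% of all genes. Under weight GSTA1 (log2 −2.18 ± 0.33, adjusted p = 0.000724), GSTA2 (−3.03 ± 0.38, 8.79e-05) and MGST1 (−0.71 ± 0.15, 0.00629) were lower than under 3% PEG. GSTM3 (0.98 ± 0.15, 0.000834), GSTM4 (1.14 ± 0.26, 0.00922) and GSTM2 (1.501 ± 0.44, 0.0267) were higher under weight. The groups did not overlap for these 6 genes, which had been picked by the test on the same libraries. They did not overlap for GSTA4 either, which was not called (0.11 ± 0.17, adjusted p = 0.709). The share of all genes without overlap was not computed, so the lack of overlap adds no support to the calls. Leaving out any of the 4 compared libraries ended the GSTM2 call (adjusted p from 0.0648 to 0.208). The GSTM4 call ended without either library of 3% PEG or weight replicate 1 (0.0512 to 0.0905), and the MGST1 call without 3% PEG replicate 1 (0.0602) or weight replicate 2 (0.0859). Without 3% PEG replicate 1 the 6 calls became 3.

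GSTA2 made up a changing part of the counts of the GSTA1 and GSTA2 pair. Under 4% PEG it gave 49.0% of the 290 counts of replicate 1 (95% Clopper-Pearson interval 43.1% to 54.9%) and 58.2% of the 268 counts of replicate 2 (52.1% to 64.2%). In isotonic medium it gave 10.2% (6.04% to 15.8%) and 13.04% (7.92% to 19.8%). Those intervals do not overlap between the groups. In HepG2 on transwells the share was 11.1% and 11.7% under weight, against 16.1% and 16.7% uncompressed, although the summed counts fell to 99 and 77 under weight, against 653 and 762 uncompressed. In Hep3B it was 29.2% and 32.4% under 3% PEG, 11.4% and 31.8% under weight, and 18.8% and 10.6% uncompressed. The interval of 3% PEG replicate 2 (24.8% to 40.8%) lay above that of uncompressed replicate 2 (3.55% to 23.1%), and the other pairs of intervals between the Hep3B groups overlapped. The weight libraries held 35 and 22 counts of the pair. These intervals cover counting error only, and reads that fit both genes could shift a share.

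**Figure D3:**
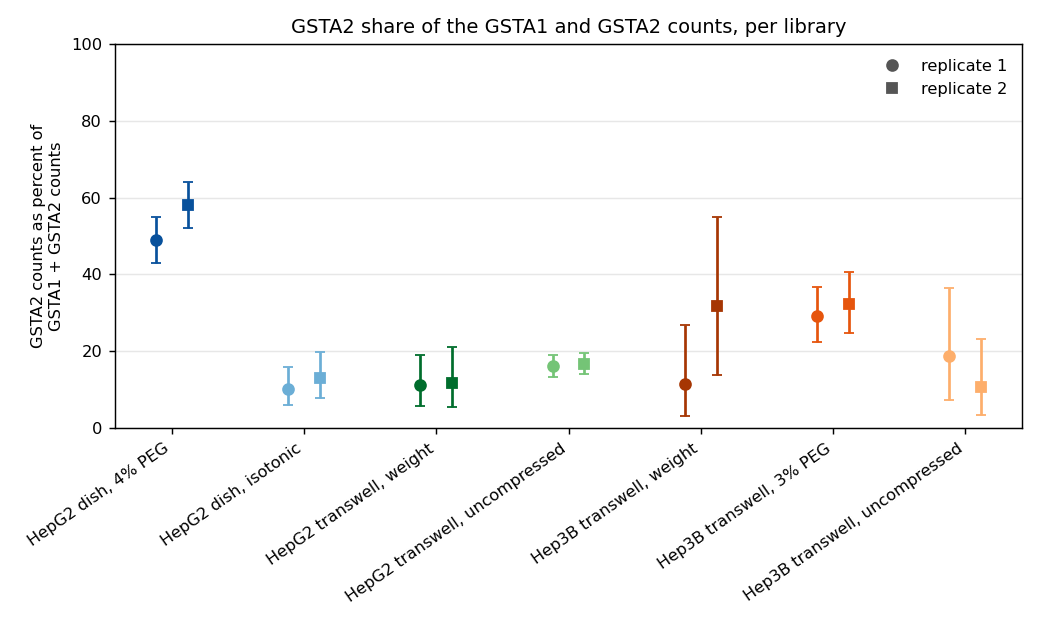
GSTA2 counts as a percent of the GSTA1 and GSTA2 counts (y axis, 0 to 100) in each library, with 95% Clopper-Pearson intervals as error bars; circles are replicate 1 and squares replicate 2. The 4% PEG libraries stand at 49.0% and 58.2%, and the other HepG2 libraries between 10.2% and 16.7%.

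The lines themselves differed most in the alpha pair. GSTA1 stood at 0.908 and 1.47 CPM in uncompressed Hep3B, against 24.4 and 26.3 CPM in uncompressed HepG2 on transwells (log2 −4.41 ± 0.30, adjusted p = 3.57e-07). GSTA2 stood at 0.209 and 0.175 CPM in Hep3B, against 4.68 and 5.25 CPM in HepG2 (log2 −4.66 ± 0.37, adjusted p = 2.14e-07). GSTM3 was higher in Hep3B, with 53.5 and 53.7 CPM, against 33.8 and 33.7 CPM in HepG2 (log2 0.67 ± 0.15, adjusted p = 0.00269). The other 6 tested members did not pass, in a contrast that called 54.7% of all genes, and their differences ran from −0.21 to 0.15. With these 4 libraries fitted alone, GSTA4 (−0.19, adjusted p = 0.0251), GSTK1 (−0.19, 0.0125) and GSTO1 (−0.22, 6.73e-05) were also called lower in Hep3B. That fit called 79.2% of its 16749 genes.

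Untreated HepG2 cells differed between the 2 culture surfaces in the same pair of genes. GSTA1 had 24.4 and 26.3 CPM on transwells, against 5.30 and 5.63 CPM on dishes (log2 2.21 ± 0.27, adjusted p = 0.00152). GSTA2 had 4.68 and 5.25 CPM on transwells, against 0.601 and 0.844 CPM on dishes (log2 2.79 ± 0.28, adjusted p = 0.000477). No overlap was seen, and 2 of 9 members were called beside 10.1% of all genes (4.79% higher, 5.33% lower). With these 4 libraries fitted alone neither passed (adjusted p = 0.183 for both), in a fit that called 0 of 15532 genes. Surface, culture time and any difference in sequencing run cannot be told apart here. This control difference enters any reading across surfaces: the GSTA2 level under 4% PEG on dishes (4.51 and 5.30 CPM) spanned about the same range as that of uncompressed cells on transwells (4.68 and 5.25 CPM). Without isotonic replicate 2 the count became 4, adding GSTK1 (0.69, adjusted p = 0.0255) and MGST1 (0.57, 0.0282).

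The effects were then set against each other by interaction terms, each sharing its libraries with the comparisons above. The weight effect in Hep3B minus that in HepG2 was 2.48 ± 0.45 for GSTA1 (adjusted p = 0.0200) and 3.65 ± 0.56 for GSTA2 (0.00755), beside 1.89% of all genes called (0.822% higher, 1.07% lower). GSTA2 rested on 4 to 7 counts in each of these Hep3B libraries. The GSTA1 term did not pass when either library of either HepG2 transwell group, or replicate 1 of either Hep3B group, was left out (adjusted p from 0.0803 to 0.177). For GSTA2 the term did not pass without replicate 2 of uncompressed (0.0501) or weighted (0.161) Hep3B.

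The 3% PEG effect in Hep3B minus the 4% PEG effect in HepG2 compares doses, lines and surfaces at once, and 25.5% of all genes were called. It was positive for GSTA1 (2.13 ± 0.42, adjusted p = 0.00313) and GSTA4 (2.00 ± 0.24, 0.000108). It was negative for GSTM3 (−1.21 ± 0.21, 0.00147), GSTO1 (−0.80 ± 0.16, 0.00374), GSTM4 (−1.38 ± 0.36, 0.0165) and GSTM2 (−1.90 ± 0.58, 0.0311). GSTM2 and GSTM4 did not pass with the 4 groups fitted alone (0.117 for GSTM2 and 0.0976 for GSTM4), in a fit that called 14.6% of its genes. The GSTM2 term was also lost without replicate 2 of 3% PEG or 4% PEG, or replicate 1 of uncompressed Hep3B or isotonic HepG2 (0.0707 to 0.138). The GSTM4 term was lost without replicate 2 of 3% PEG or either uncompressed Hep3B library (0.0502 to 0.0731). For GSTA2 and MGST1 the term was 0.42 ± 0.47 and −0.01 ± 0.22, with adjusted p of 0.597 and 1.00, which does not show that the effects are equal.

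In HepG2 the 4% PEG effect on dishes minus the weight effect on transwells was 6.26 ± 0.42 for GSTA2 (adjusted p = 9.08e-07) and 2.53 ± 0.40 for GSTA1 (0.000638), in a contrast that called 29.9% of all genes. It was also positive for GSTO1 (1.07 ± 0.16, 0.000499) and MGST1 (0.96 ± 0.22, 0.00597), and negative for GSTA4 (−1.74 ± 0.24, 0.000275). The kind of compression and the surface cannot be told apart in it.

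GSTP1, the transferase most often studied in tumours, was hardly detected in either line. It had 3 counts among 364.7 M, 1 each in 3 of the 14 libraries: 4% PEG replicate 1, weighted HepG2 replicate 1 and uncompressed Hep3B replicate 2. Every library was below its 3-count limit of 0.0952 to 0.141 CPM, so any difference between groups was not detectable at this depth.

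Other genes of glutathione metabolism were followed in 3 lists. Of 17 other transferase family genes, 16 were in the table and 7 were tested; GSTT1 was not analysed here. Under 4% PEG 3 of the 7 rose and 2 fell, beside 46.9% of all genes called (23.9% higher, 23% lower), and their median was 0.15, beside 0.01 over all genes tested. MGST2, a membrane enzyme that can make leukotriene C4, fell to 40.9 CPM under 4% PEG, against 200.2 CPM in isotonic medium (log2 −2.29 ± 0.12, adjusted p = 6.70e-08). MGST3, its relative, had 41.9 CPM under 4% PEG, against 13.97 CPM in isotonic medium (1.59 ± 0.19, 3.94e-05), and GSTCD fell by 0.54 on the log2 scale (0.00326). PTGES, a prostaglandin E synthase of the MAPEG family, had 52 counts under 4% PEG, against 2 in isotonic medium, a ratio of normalised counts of 21.2 (exact 95% interval 5.57 to 179, for counting error only, with the libraries of a group summed). Weight in HepG2 left 2 of the 7 lower, beside 4.19% of all genes, GSTCD (−0.47 ± 0.12, adjusted p = 0.0312) and MGST2 (−0.44 ± 0.12, 0.0371). Under 3% PEG in Hep3B MGST2 (−0.52 ± 0.12, 0.0100) and GSTT2B (−1.92 ± 0.60, 0.0315) fell and GSTZ1 (1.00 ± 0.28, 0.0268), an enzyme of tyrosine breakdown, rose, beside 22.5% of all genes called. GSTT2B averaged only 0.249 CPM under 3% PEG, against 0.945 CPM uncompressed, so its call rests on few counts. The median of the list was −0.39, or −0.30 with PTGES, which had no count in one group, at its bound.

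Among 28 genes of glutathione synthesis, recycling and conjugate handling, all tested, 13 rose and 4 fell under 4% PEG, with a median of 0.62, beside 0.01 over all genes, of which 23.9% rose and 23% fell. SLC7A11, the cystine importer, averaged 363 CPM under 4% PEG, against 45.3 CPM in isotonic medium (log2 3.00 ± 0.24, adjusted p = 2.65e-06). GCLM, the modifier subunit of the enzyme that makes the glutathione precursor, averaged 118 CPM under 4% PEG, against 41.8 CPM in isotonic medium (a rise of 2.83-fold, adjusted p = 1.82e-05). GPX3, a secreted glutathione peroxidase, fell to 174 CPM under 4% PEG, against 841 CPM in isotonic medium (−2.27 ± 0.18, 1.90e-06). GCLC, the catalytic partner of GCLM, rose 4.70-fold (adjusted p = 1.45e-07).

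Under 3% PEG in Hep3B, 8 of the 28 rose and 1 fell, with a median of 0.29, beside −0.01 over all genes, of which 11% rose and 11.5% fell. SLC7A11 averaged 285 CPM under 3% PEG, against 32.2 CPM uncompressed (log2 3.14 ± 0.24, adjusted p = 1.16e-05), GCLC 309 CPM under 3% PEG, against 62.7 CPM uncompressed (2.30 ± 0.13, 9.65e-07), and GCLM 98.8 CPM under 3% PEG, against 26.3 CPM uncompressed (1.91 ± 0.16, 1.65e-05). ABCC2, which exports glutathione conjugates into bile, rose as well (1.26 ± 0.11, 1.41e-05). Under weight in HepG2 2 rose and 2 fell, with a median of −0.07, beside 9.59% of all genes called: GPX3 (1.17 ± 0.18, 0.00228) and the conjugate exporter ABCC3 (1.49 ± 0.31, 0.0119) rose, and GSR, which regenerates reduced glutathione (−0.42 ± 0.11, 0.0317), and GGCT, which breaks down gamma-glutamyl peptides (−0.77 ± 0.20, 0.0330) fell.

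Of 19 regulators and NRF2 targets, all tested, 5 rose and 1 fell under 4% PEG (median 0.17), a smaller share than the 46.9% of all genes called there. Under weight in HepG2 2 rose and 1 fell (median −0.01), beside 9.59% of all genes. Under 3% PEG 9 rose and none fell (median 0.76), beside 11% of all genes higher and 11.5% lower. NQO1, a quinone reductase and classical NRF2 target, rose under 4% PEG (0.77 ± 0.12, adjusted p = 0.000294) and 3% PEG (1.81 ± 0.14, 8.57e-06) and fell under weight in HepG2 (−0.60 ± 0.12, 0.00962). TXNRD1, thioredoxin reductase, rose under 4% PEG (2.14 ± 0.14, 5.53e-07) and 3% PEG (1.65 ± 0.14, 2.00e-05). NR1I2, the pregnane X receptor, averaged 60.9 CPM under 4% PEG, against 5.57 CPM in isotonic medium (3.46 ± 0.25, 2.77e-06), and CEBPA, a hepatocyte transcription factor, fell (−1.81 ± 0.32, 0.000752). Thioredoxin, TXN (1.20 ± 0.10, 1.36e-05) and CEBPB (2.17 ± 0.25, 0.000136) rose under 3% PEG, and OSGIN1 (1.22 ± 0.34, 0.0448) and BACH1, a repressor at antioxidant response elements (0.37 ± 0.10, 0.0486) rose under weight in HepG2. In Hep3B under weight edgeR called none of the 3 lists' genes, beside 1.06% of all genes called.

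**Figure D4:**
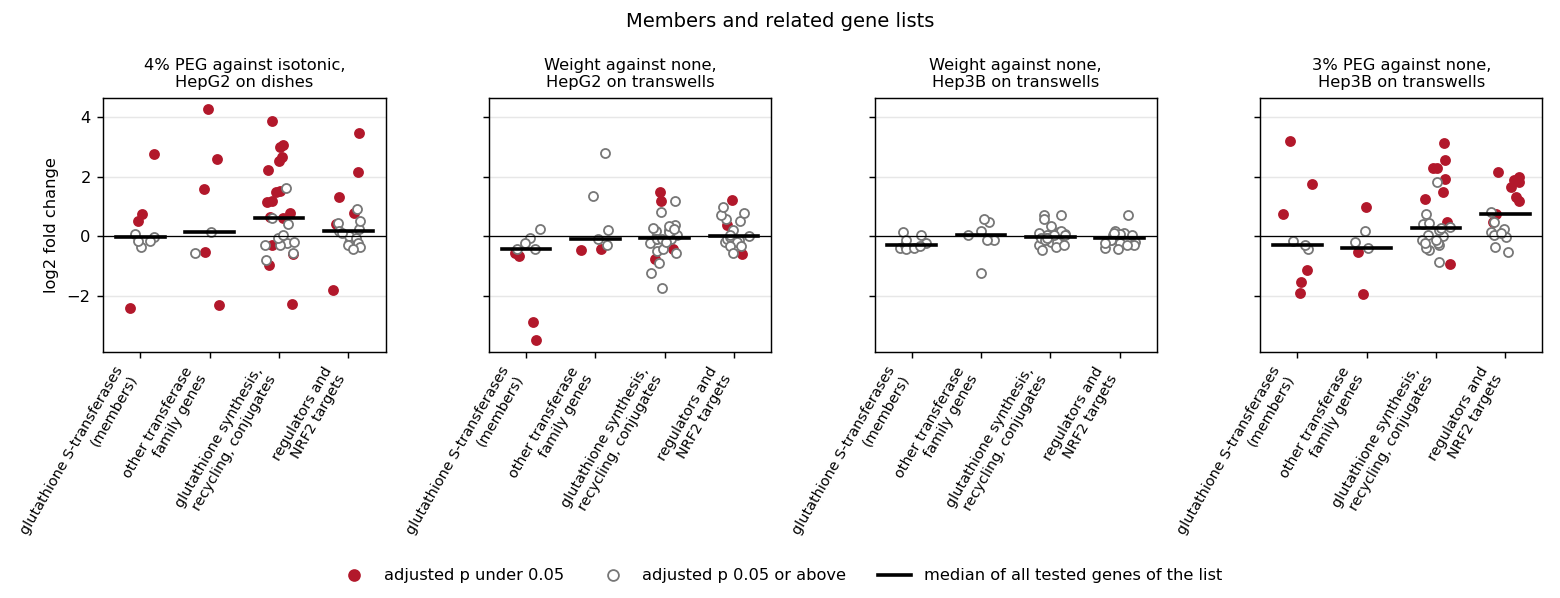
Log2 fold change (y axis) of the 9 tested members and of the tested genes of 3 related lists in the 4 comparisons; filled points have an adjusted p under 0.05 and the bar is the median of all tested genes of a list. Genes with no count in a compared group are not drawn. The medians of the regulator list are 0.17 in 4% PEG and 0.76 in 3% PEG, and no point is filled for Hep3B under weight.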

How the data were processed

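Total RNA had been isolated with an RNeasy kit and read as paired 100 bp reads on HiSeq or NovaSeq instruments, per the labels. STAR, DESeq2 and GRCh38 (hg38) appear in the submitters' processing notes without versions or roles; no source used here gives the counting tool or the annotation. The deposited table holds the authors' raw counts, whole numbers per gene and library, neither normalised nor pooled. Entries without a gene name (15420) held at most 0.308% of a library's counts. Columns headed Hep3B control were taken as the uncompressed Hep3B libraries.

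Counts were analysed in R 4.3.3 with edgeR 4.0.16: filterByExpr with a minimum count of 10, TMM scaling, and a robust quasi-likelihood fit of all 14 libraries (a mean for each of 7 groups, leaving 7 residual degrees of freedom). P-values were adjusted over 19232 genes by the Benjamini-Hochberg method, with a threshold of 0.05. Fold changes carry the SE of this fit, and 95% intervals use 7 degrees of freedom. CPM per kilobase uses the median length of protein-coding GENCODE 29 transcripts. Replicate numbers were not taken as pairs, since the labels do not say that they mark a shared batch.

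Every member is named in each comparison. Up to 4 called genes with the smallest p are named from each related list, and 3 genes per chosen member by likeness of level. The members, lists and tests were chosen with earlier results of these data known. Alternatives were RLE size factors, library totals alone, no filter, a replicate block, DESeq2 1.42.0, fits of only the groups compared, a filter of 5 CPM in 2 libraries and leaving out each library.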

Additional observations from a re-analysis of the deposited data

Results flagged for a closer look

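In 13 cases the effect on a member differed between 2 settings by a test of the difference itself. Of 9 tested members, 2 were called in the weight interaction, 6 in the PEG interaction and 5 for 4% PEG minus weight. Those contrasts called 1.89%, 25.5% and 29.9% of all genes. The weight terms of GSTA1 and GSTA2 and the PEG terms of GSTM2 and GSTM4 were lost when certain single libraries were left out. The differences below are log2 differences between effects. Between lines, the weight effect in Hep3B minus that in HepG2 was 2.48 for GSTA1 and 3.65 for GSTA2. The HepG2 effects were falls (log2 −2.89 and −3.49), and the Hep3B effects (−0.41 and 0.16) did not pass. The 3% PEG effect in Hep3B minus the 4% PEG effect in HepG2 was 2.13 for GSTA1 and 2.00 for GSTA4. For GSTA1 the effects were 1.77 in Hep3B and −0.36 in HepG2, and for GSTA4 −0.41 and −2.41. The −0.36 and the −0.41 did not pass. The difference between the PEG effects was −1.90 for GSTM2, −1.21 for GSTM3, −1.38 for GSTM4 and −0.80 for GSTO1. Within HepG2, the 4% PEG effect minus the weight effect was 2.53 for GSTA1, 6.26 for GSTA2, 1.07 for GSTO1, 0.96 for MGST1 and −1.74 for GSTA4. For GSTA1 (−0.36 and −2.89) and GSTA4 (−2.41 and −0.67) both effects were negative, but the −0.36 did not pass. For GSTA2 (2.77 and −3.49) and GSTO1 (0.51 and −0.55) the effects had opposite signs. The GSTO1 weight call depended on single libraries, as given above. For MGST1 only the 4% PEG effect of 0.75 passed. Its weight effect of −0.21 did not (edgeR adjusted p = 0.476), so the sign of that effect is not established. The PEG term does not separate line, dose and surface, and the 4% PEG minus weight term does not separate the kind of compression and the surface. All groups of the weight term were on transwells, and the labels give neither load nor duration for them. Time is therefore not separated by any of these terms.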

How the results depend on the processing

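None of 1869 alternative values of single members turned a called direction: 1734 kept their side of the threshold and their sign, 46 lost the call, 21 gained it, and 68 were uncalled values with another sign. Fitting only the groups compared changed the number of members called most. It became 2 for 4% PEG, 7 for weight in HepG2, 2 for weight in Hep3B, 6 for the lines and 0 for the surfaces. In that order those fits called 22%, 44.5%, 15.2%, 79.2% and 0% of all genes. The fit of all libraries called 46.9%, 9.59%, 1.06%, 54.7% and 10.1%. The filter of 5 CPM dropped GSTA2 and GSTM2, left 7 members to test and gave 1 call each for the surfaces and for the weight interaction. With that filter those contrasts called 13% and 3.49% of all genes, so 1 in 7 for the surfaces is near the background. Leaving out 1 library gave 4 to 5 calls for 4% PEG, 2 to 4 for weight in HepG2, 0 for weight in Hep3B, 4 to 7 for 3% PEG, 3 to 6 for weight against 3% PEG, 3 for the lines and 2 to 4 for the surfaces. For the weight interaction that range was 1 to 2, for the PEG interaction 4 to 6 and for 4% PEG minus weight 5 to 6. A lone library is then assumed to vary like the other groups. The share of all genes called in these fits was not kept, so the ranges have no background beside them. RLE size factors, library totals alone, no filter and DESeq2 kept each count within 1.5 times of that reported. Library totals alone put the median log2 fold change of all genes at 0.37 for 4% PEG, 0.35 for the lines, 0.14 for the surfaces, −0.28 for the PEG interaction and 0.34 for 4% PEG minus weight.

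A replicate block used a term common to all groups. It changed no call in 90 of 90 values (4 members under 4% PEG with and without it). Such a term cannot fully take up a replicate difference that is larger on dishes than on transwells. It therefore does not test the 4% PEG calls against pairing. Replicate differences correlated at 0.63 across genes between the dish groups, so replicate number marked a shared difference there. Between transwell groups the correlation was −0.08 to 0.07. The numbers were not taken as pairs, since the labels name no shared batch. The dish tests therefore leave that shared difference in their spread.

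Depth limits GSTA2 in Hep3B, at 4 to 7 counts a library without PEG, and GSTP1 throughout.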

Other observations

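After subtracting the mean of each line, the genes whose log2 CPM followed that of 3 members most closely over the 14 libraries were picked from 9398 genes with at least 5 CPM in each line. GSTA1 was closest to NANS (Pearson r = 0.97), KANSL2 (0.94) and PDCD7 (0.94). GSTM3 was closest to NDUFB4 (0.98), NPC2 (0.95) and LPCAT3 (0.94). MGST1 was closest to FAM120AOS (0.97), WDR41 (0.97) and SUPT20H (0.94). These are the highest of many values over 14 libraries, whose points share groups of 2 replicates and 1 count table, and they are given as a description with no test.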
